A study of Mus musculus with 6 samples.

Results

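Mouse granulosa cells with a conditional deletion of Foxo1 and Foxo3 were compared at 2 ages, 2 months and day 25 of life. The comparison rests on 4 of the 6 arrays of the study: 2 of knockout cells at 2 months and 2 of knockout cells at day 25, chosen by genotype and age. The other 2 arrays, of wild-type cells at day 25, are given beside them as a reference. The knockout mice had the genotype Foxo1 f/-;Foxo3 f/-; Amhr2-cre, called dKO here. By design both genes are deleted where Cre is made from the Amhr2 locus, a gene for a hormone receptor of granulosa cells. Mice of all groups had a mixed FVB and C57BL/6 background. Wild-type cells at 2 months were not analysed here, so age as such cannot be told apart from a difference that comes with age only in the knockout. The labels state neither a stage of the oestrous cycle, nor a hormone treatment, nor whether 2 replicates came from separate mice. The spread that enters the p-values below is thus that of these samples alone and could be technical.

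Granulosa cells surround the oocyte in the ovarian follicle, divide as the follicle grows under follicle-stimulating hormone, and make oestrogen, inhibin and activin. After the surge of luteinizing hormone they stop dividing, take up cholesterol and become luteal cells that make progesterone. FOXO1 and FOXO3 are forkhead transcription factors that insulin-type signals keep out of the nucleus. In granulosa cells FOXO1 is known to restrain genes of steroid synthesis and proliferation.

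Each value is an intensity, the brightness of a probe set on an Affymetrix array after RMA, the standard normalization of such arrays, on a linear scale. Array medians were 73 or 74, and precision is limited by the number of arrays. Granulosa cell genes were bright on all 6 arrays, with Foxl2 from 6165 to 13167 and Fshr from 993 to 1857. The 2 dKO arrays at 2 months were less alike than those of the other groups: 1466 genes differed by over 2-fold between them, against 342 between the day 25 dKO arrays and 420 between the wild-type arrays. Replicate 1 at 2 months stood apart, with a correlation across probe sets of 0.972 with both day 25 dKO arrays and 0.978 with replicate 2. Replicate 2 at 2 months had 0.991 and 0.992 with the day 25 dKO arrays, as near as these were to each other (0.991). Against the day 25 mean, 658 genes were over 2-fold higher and 1166 over 2-fold lower on replicate 1, but 118 and 89 on replicate 2. Both 2-month arrays had 66 genes over 2-fold higher and 50 over 2-fold lower, and 6 genes were past 2-fold in opposite directions. For that reason each result below is given for both arrays.

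**Figure D1:**
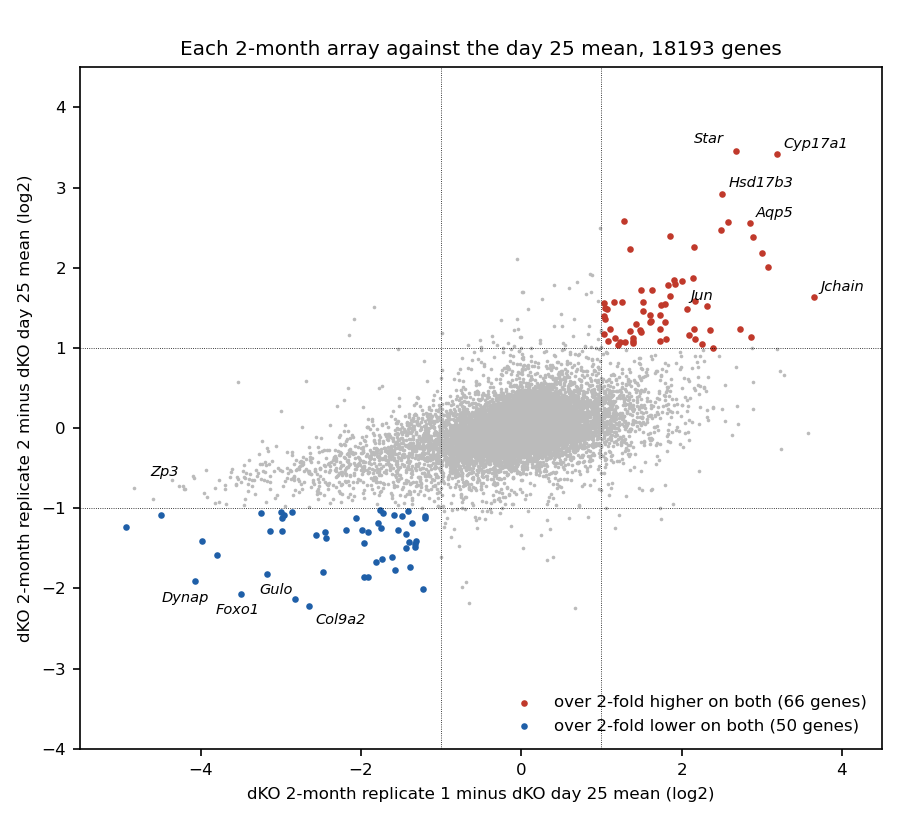
Log2 difference of each dKO array at 2 months from the day 25 dKO mean, replicate 1 on the x axis and replicate 2 on the y axis, with 1 point for each of 18193 genes and dotted lines at 2-fold. The cloud is wider along the axis of replicate 1, and the coloured points are the 66 genes over 2-fold higher and the 50 over 2-fold lower on both arrays.

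The targeted genes were read first. In wild type, Foxo1 intensity was 10319 and 7666. It was 904 and 2291 in dKO at day 25 and 126 and 343 in dKO at 2 months. Both 2-month arrays lay below both day 25 arrays, with a log2 difference of -2.78 ± 0.65 (SE) and an adjusted p of 0.712 (limma with Benjamini-Hochberg adjustment over 45037 probe sets). The other bright probe sets of Foxo1 had the same order, at 398 and 1022 against 77 and 154 and at 250 and 680 against 50 and 102. Foxo3 read 1632 and 1342 in wild type, then 2539 and 3279 at day 25 and 2484 and 1872 at 2 months in dKO. Its signal was thus no lower in dKO than in wild type, and the 2 dKO ages differed by -0.42 ± 0.22 on the log2 scale. Whether these probe sets lie in the deleted part of either gene was not analysed here, so the Foxo3 values do not check its deletion.

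No gene changed between the dKO ages by the test. In limma, 0 of 45037 probe sets had an adjusted p under 0.05 and the smallest was 0.712, while 2514 had an unadjusted p under 0.05. The count after adjustment was 0 under every alternative run as well. Of the 18193 genes, each read on its brightest probe set, 678 had an unadjusted p under 0.05 and were higher at 2 months (3.73%), and 528 were lower (2.90%). Genes are therefore described below by whether both 2-month arrays lay on 1 side of both day 25 arrays, called no overlap. It held for 6670 genes (36.7%), of which 3583 were higher at 2 months (19.7% of all genes) and 3087 lower (17.0%). Were the ages of the 4 arrays interchangeable, no overlap would be expected for a share of 0.333 of genes. The count of genes without overlap is thus not a count of genes that differ by age. With a mean difference over 2-fold added, 181 higher (0.995%) and 521 lower (2.86%) genes were left. Those counts were 118 higher and 84 lower without replicate 1 at 2 months, and 656 higher and 1162 lower without replicate 2. Without day 25 replicate 2, 355 were higher. The median log2 difference of all genes was 0.02. The limma adjusted p of every gene named below lay between 0.712 and 1, and "higher" and "lower" describe these arrays only.

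The gap, the log2 distance between the nearest arrays of the 2 ages, ranks genes by what both replicates share. It was over 2-fold for 31 genes that were higher at 2 months and 15 that were lower. At the head of the first set was Hsd17b3, the enzyme that turns androstenedione into testosterone. Its intensity was 79 and 29 in wild-type cells, 141 and 142 in dKO at day 25, and 810 and 1081 in dKO at 2 months, a log2 difference of 2.72 ± 0.48. The water channel gene Aqp2 read 126 and 188 in wild-type cells, 128 and 163 in day 25 dKO cells and 871 and 864 at 2 months, a difference of 2.58 ± 0.23. Aqp5, a second water channel gene, read 180 and 267, then 209 and 266, then 1709 and 1395, a difference of 2.71 ± 0.25. For both water channel genes the day 25 groups of both genotypes overlapped and only the 2-month arrays stood above them. Aqp2 and Aqp5 neighbour each other on chromosome 15 in RefSeq. Aqp6, the gene next to them there, was dim on every array (26 to 32) and was singled out after its values were seen.

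Among the other genes of largest gap were enzymes, transporters and a nuclear RNA. Adh1, an alcohol dehydrogenase that also oxidizes retinol, read 145 and 281 at day 25 and 904 and 967 at 2 months (wild type 215 and 168), a log2 difference of 2.21 ± 0.34. Neat1, the long noncoding RNA on which paraspeckles are built, read 1452 and 1188 at day 25 and 4751 and 4116 at 2 months (wild type 717 and 1046), a difference of 1.75 ± 0.23. The 2-month arrays of both genes lay close together and far above day 25. Niban1, a stress response gene, read 135 and 184 at day 25 against 699 and 581, and Hs3st3b1, a heparan sulfate sulfotransferase, 73 and 72 against 253 and 214. Bpifb5 read 153 and 225 against 705 and 645, and Spns2, a transporter of sphingosine 1-phosphate, 85 and 107 against 270 and 316. For H3f3b, a gene for histone H3.3, the 2-month values of 663 and 578 lay above those of dKO at day 25 (229 and 205) but within the wild-type range of 381 to 1010. Jchain, which links immunoglobulin subunits in plasma cells, read 26 and 36 at day 25 and 397 and 97 at 2 months, so most of its difference came from replicate 1.

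The genes that were lower without overlap included several that the day 25 cells of both genotypes carried. Col9a2, a chain of collagen IX, read 490 and 394 in wild-type cells, 316 and 332 in day 25 dKO cells and 51 and 69 at 2 months, a log2 difference of -2.43 ± 0.19. Gulo, the last enzyme of vitamin C synthesis, read 697 and 642, then 301 and 309, then 33 and 86, a difference of -2.49 ± 0.45. In both genes the order was wild type, dKO at day 25, dKO at 2 months, with no overlap between neighbours. Arnt2, a basic helix-loop-helix partner protein, had that order too, with 758 and 711, then 350 and 463, then 148 and 142 (-1.47 ± 0.16), and so did Tmeff1, with 490 and 306, then 174 and 230, then 75 and 74 (-1.41 ± 0.27). The other 2 probe sets of Arnt2 were dim and differed little (log2 differences of -0.03 each).

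Dynap was high at day 25 in both genotypes, with 1536 and 2305 in wild type and 3259 and 2313 in dKO, and read 163 and 730 at 2 months (-2.99 ± 0.74). Mbl2, a mannose-binding lectin of the complement system, read 861 and 1071 in dKO at day 25 and 60 and 360 at 2 months (wild type 594 and 287). In both genes replicate 1 was far lower than replicate 2, and for Mbl2 1 wild-type array lay below replicate 2. Serpinf1, a secreted inhibitor of angiogenesis also called PEDF, read 2099 and 1930 at day 25 and 606 and 968 at 2 months, a difference of -1.39 ± 0.39. Slc38a4, an amino acid transporter, read 140 and 65 against 28 and 30. Ang, the secreted ribonuclease angiogenin, read 199 and 290 against 33 and 54. Another Ang probe set, at 18 and 19 at both ages, showed no difference, and the probe sets that did can match more than 1 transcript. Rpgrip1, Krt12, Klhl32, Lims2 and Insm1 complete the 15 lower genes of largest gap at a mean intensity of 100 or more. Their log2 differences were from -1.39 to -2.69. This set is not the 15 lower genes with a gap over 2-fold, as the log2 gap was -0.99 for Serpinf1 and -0.97 for Insm1.

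**Figure D2:**
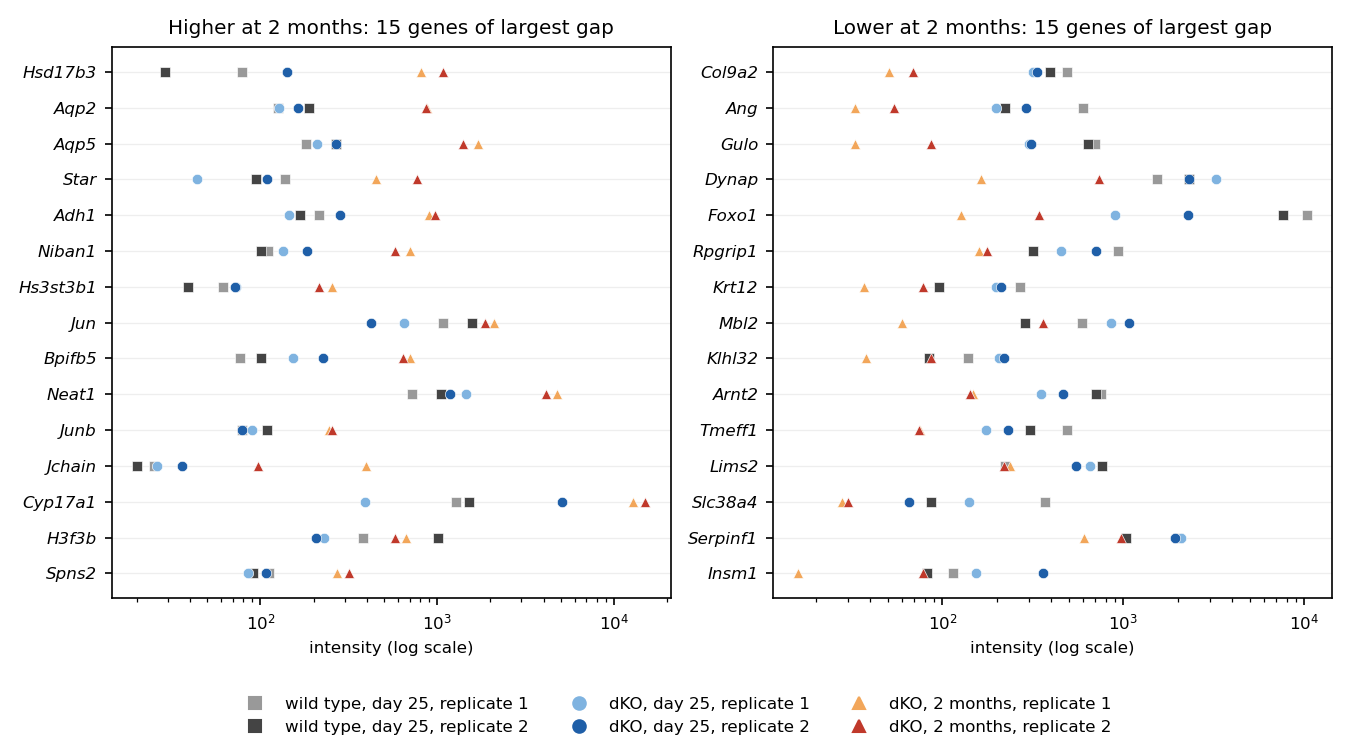
Intensity on each of the 6 arrays (log scale) for the 15 genes of largest gap that were higher in dKO at 2 months (left) and the 15 that were lower (right), with 1 mark per array. Both sets hold only genes at a mean intensity of 100 or more in the higher group. Both 2-month marks lie to 1 side of both day 25 dKO marks for every gene, which the choice of genes fixes, while the wild-type marks lie with day 25 dKO for genes such as Aqp2 and Aqp5.

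Genes of steroid hormone synthesis were on the whole higher at 2 months. Of 18 measured members, 8 were higher without overlap and 0 lower (44.4% against 19.7% of all genes), and all 8 also had an unadjusted p under 0.05. The median log2 difference of the list was 0.40, with 0.53 on replicate 1 and 0.37 on replicate 2, against 0.02 for all genes. Against day 25 replicate 1 alone, that is without day 25 replicate 2, it was 0.64. Genes for the uptake of cholesterol and its delivery to the mitochondrion are given first, not by rank. Star, the rate-limiting carrier of cholesterol into mitochondria, read 138 and 94 in wild-type cells, 44 and 109 in day 25 dKO cells and 449 and 770 at 2 months, a log2 difference of 3.07 ± 0.52. All 3 Star probe sets had this order. Tspo, a mitochondrial cholesterol-binding protein, read 687 and 672 at day 25 and 1441 and 888 at 2 months. Scarb1, the receptor for cholesterol from high-density lipoprotein, read 3355 and 3718 at day 25 and 7033 and 8091 at 2 months (wild type 5185 and 4599), a difference of 1.09 ± 0.13.

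Cholesterol side-chain cleavage, the first step of steroid synthesis, needs Cyp11a1 and the electron carrier Fdx1. Cyp11a1 read 653 and 1597 in wild-type cells, 918 and 2832 in day 25 dKO cells and 6064 and 5803 at 2 months, a log2 difference of 1.88 ± 0.67. Fdx1 read 3527 and 4063, then 2169 and 3781, then 8184 and 7851, a difference of 1.48 ± 0.28. In both genes the 2-month arrays were close together and above all 4 arrays of day 25. The later enzymes differed among themselves. Cyp17a1, which makes androgen and in the ovary is known chiefly from theca cells, read 389 and 5073 at day 25 and 12804 and 15028 at 2 months. Its day 25 arrays were over 10-fold apart, and the difference of 3.30 had an SE of 1.20. Hsd3b1, which makes progesterone, read 12568 and 18958 at day 25 and 24919 and 14402 at 2 months, so the ages overlapped (0.30 ± 0.35, adjusted p = 0.816 in limma). Hsd17b1, which makes oestradiol, overlapped too, at 10490 and 7275 against 11282 and 8904 (adjusted p = 0.813 in limma). Nr5a1, the nuclear receptor that switches on many steroid genes, read 433 and 850 at day 25 and 1707 and 1394 at 2 months. Cyp19a1 and Lhcgr were not analysed here.

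Of 9 markers of theca and interstitial cells, 5 were higher without overlap (55.6%) and 0 lower, against 19.7% and 17.0% of all genes. Their summed intensity was 24064 and 40103 at day 25 and 61731 and 51493 at 2 months, but 5 of the 9 are steroid genes themselves. The sum of the 4 that are not was 10127 and 13112 at day 25 and 17477 and 15466 at 2 months (wild type 8285 and 8216). Most of it is Aldh1a1, a retinal dehydrogenase that was higher without overlap, at 7153 and 9409 against 13637 and 12440. Nr2f2 read 640 and 777 against 1187 and 797. Dimmer Nr2f2 probe sets at 153 and 209 against 267 and 219, 99 and 123 against 182 and 139, and 206 and 242 against 396 and 304 had the same order. Those at 39 and 46 against 65 and 40 and at 62 and 48 against 69 and 56 overlapped. Hhip and Ptch1, hedgehog genes known from theca cells, overlapped between the ages, at 75 and 138 against 40 and 115 and at 2259 and 2788 against 2613 and 2114. The part of theca cells in the steroid values was not tested. In these pooled cells more or fewer cells of a type and more or less RNA per cell cannot be told apart.

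Immediate early genes, which code for factors made within minutes of a hormone or other stimulus, were higher on both 2-month arrays alike. Of 30 measured members 17 were higher without overlap (56.7%) and 3 lower, against 19.7% and 17.0% of all genes. The unadjusted p was under 0.05 for 13 higher and 1 lower member, against 3.73% and 2.90% of all genes. The median log2 difference of the list was 0.58, with 0.55 on replicate 1 and 0.54 on replicate 2. Jun, a subunit of the AP-1 factor, read 1077 and 1574 in wild-type cells, 650 and 422 in day 25 dKO cells and 2098 and 1865 at 2 months, a log2 difference of 1.92 ± 0.29. Junb, its close relative, read 79 and 109, then 90 and 79, then 243 and 253, a difference of 1.54 ± 0.18. Both genes had tight pairs at 2 months that lay above every day 25 array. Btg2, an antiproliferative gene, read 617 and 820 at day 25 and 1826 and 1650 at 2 months (wild type 651 and 927), a difference of 1.29 ± 0.23, and its other probe set had the same order.

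Ier2 read 417 and 337 at day 25 and 786 and 1054 at 2 months, and Zfp36, whose protein speeds the decay of cytokine messages, 141 and 119 against 301 and 229. Egr1, an early factor induced by luteinizing hormone in granulosa cells, read 3456 and 1827 at day 25 and 4919 and 4993 at 2 months. Fos, the AP-1 partner of Jun, did not follow: it read 2538 and 871 at day 25 and 1779 and 4530 at 2 months, so the ages overlapped (adjusted p = 0.737 in limma). Nr4a1, an orphan nuclear receptor induced by gonadotropins, read 1016 and 734 against 2276 and 1053, with a gap of only 0.05 on the log2 scale. Klf6 read 273 and 296 at day 25 and 435 and 413 at 2 months, both below wild type (579 and 619). Myc was among the 3 members that were lower, with 547 and 711 against 235 and 488 (wild type 1425 and 1102).

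**Figure D3:**
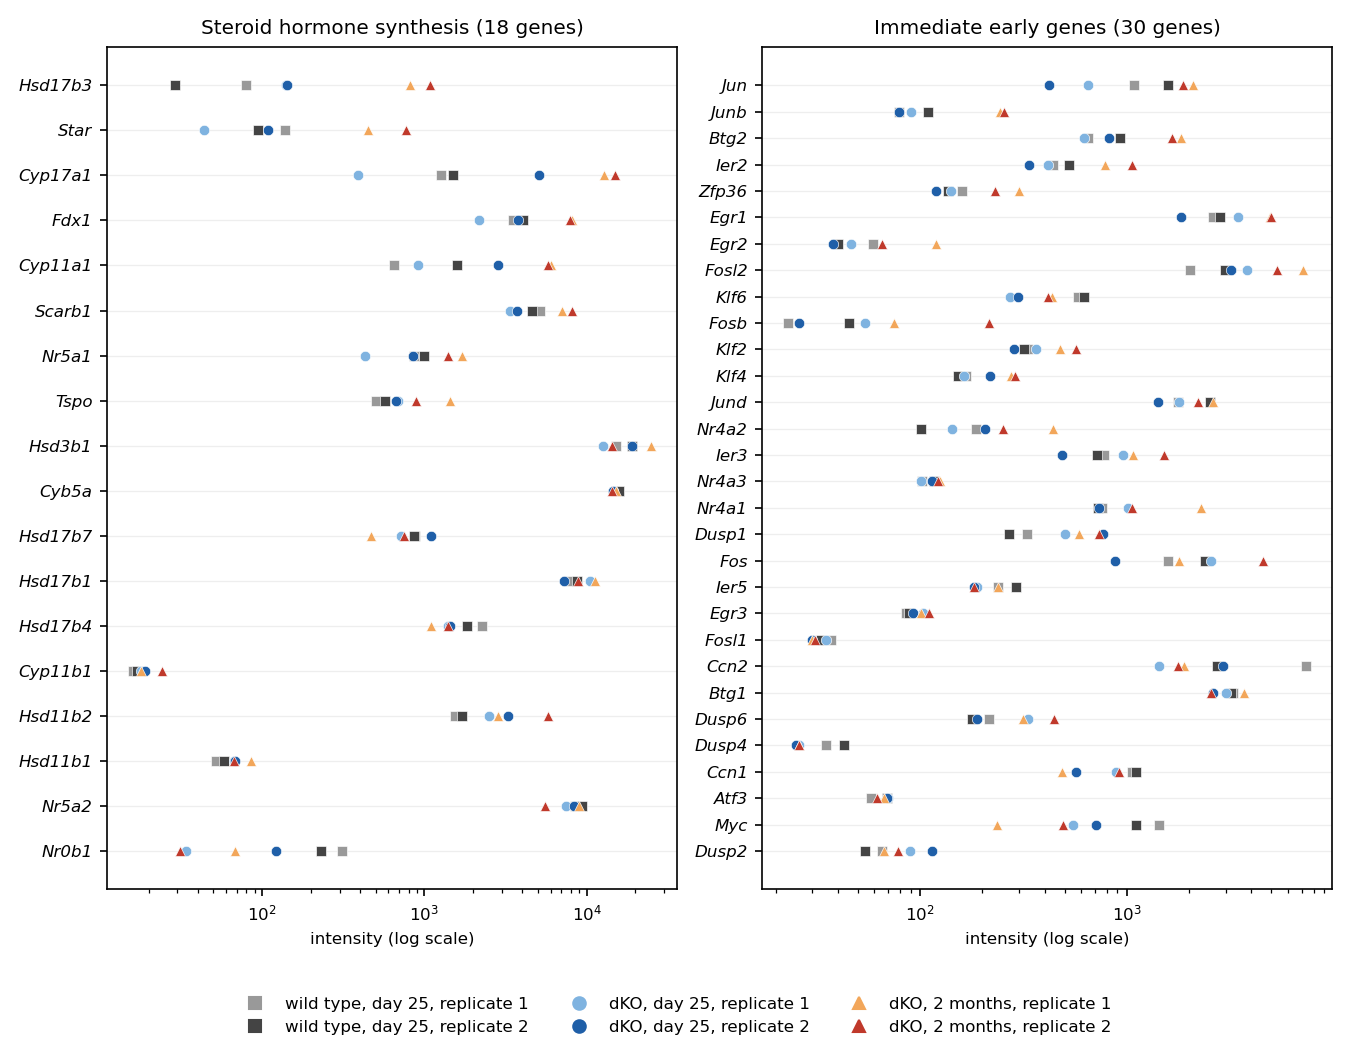
Intensity on each of the 6 arrays (log scale) for the 18 measured genes of steroid hormone synthesis (left) and the 30 measured immediate early genes (right), ordered by gap, with 1 mark per array. From Hsd17b3 to Tspo and from Jun to Nr4a1 both 2-month marks lie to the right of both day 25 dKO marks.

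The cAMP response element, TGACGTCA, is the site of CREB, the factor through which gonadotropins act on many early genes, and TGACG is its half-site. RefSeq promoters (GRCm38.p6, 250 bases before to 50 after the start of the gene) were held for 23 of the 30 early genes. Read on both strands, TGACG was in 15 of these 23 (65.2%), against 23.0% of 27025 genes and 30.0% of the 14452 measured genes with a promoter. The full site was in 2 of the 23 early genes, against 2.03% of all genes and 2.92% of measured genes with a promoter. Over all lists, TGACG was in 28.3% of the genes higher without overlap and 31.2% of those lower. The half-site was thus no more frequent in genes higher at 2 months than in measured genes. Every full site also holds the half-site. Within the early genes, it was in 9 of the 15 that were higher without overlap and in 6 of the other 8. Among the genes of gonadotropin and cAMP signalling it was in 18 of 25 (72.0%), and among steroid synthesis genes in 2 of 8. The NR5A1 half-sites CAAGGTCA and CAAGGCCA were in 0 of those 8 promoters, against 1.76% and 2.80% of all genes. A match is a description of letters, and a promoter without one says nothing of the factor. Below are the promoters of Btg2 (chr1:134079106-134079405, minus strand), Junb (chr8:84978699-84978998, minus strand), Cyp11a1 (chr9:57997774-57998073, plus strand) and Aqp2 (chr15:99578806-99579105, plus strand). They were chosen to show a site in genes that were higher without overlap, not as typical of such genes, and capitals mark the full site in Btg2 and the half-site, on either strand, in the others.
Btg2: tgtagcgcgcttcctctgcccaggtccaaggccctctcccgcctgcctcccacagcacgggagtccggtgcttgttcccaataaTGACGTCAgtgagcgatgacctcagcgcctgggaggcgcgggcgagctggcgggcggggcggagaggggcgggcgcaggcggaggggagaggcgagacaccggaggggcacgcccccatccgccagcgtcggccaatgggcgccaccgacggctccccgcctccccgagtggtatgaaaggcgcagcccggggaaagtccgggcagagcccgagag
Junb: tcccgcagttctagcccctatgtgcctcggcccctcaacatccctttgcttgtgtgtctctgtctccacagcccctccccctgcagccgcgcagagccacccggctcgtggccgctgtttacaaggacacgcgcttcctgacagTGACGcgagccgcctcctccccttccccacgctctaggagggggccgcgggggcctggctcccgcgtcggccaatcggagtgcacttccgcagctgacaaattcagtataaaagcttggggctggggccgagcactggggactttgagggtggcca
Cyp11a1: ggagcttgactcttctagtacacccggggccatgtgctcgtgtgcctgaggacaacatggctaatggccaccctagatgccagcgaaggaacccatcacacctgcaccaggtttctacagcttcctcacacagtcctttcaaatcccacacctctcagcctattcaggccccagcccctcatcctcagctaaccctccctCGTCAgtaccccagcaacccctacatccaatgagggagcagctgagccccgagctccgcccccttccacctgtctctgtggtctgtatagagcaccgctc
Aqp2: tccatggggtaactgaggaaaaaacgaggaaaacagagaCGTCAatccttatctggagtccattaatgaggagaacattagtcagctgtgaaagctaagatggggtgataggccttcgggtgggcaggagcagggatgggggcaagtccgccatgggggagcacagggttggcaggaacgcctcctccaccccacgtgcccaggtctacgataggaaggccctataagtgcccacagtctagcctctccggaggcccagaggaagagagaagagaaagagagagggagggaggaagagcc
The marked letters begin at position -166 from the start in Btg2, -106 in Junb, -50 in Cyp11a1 and -211 in Aqp2.

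Genes that mark ovulation and the change to luteal cells were partly higher. Of 29 ovulation and cumulus genes, 13 were higher (44.8% against 19.7% of all genes) and 3 lower (10.3% against 17.0%) without overlap. The median log2 difference was 0.31 (0.36 and 0.17 on replicates 1 and 2), and 0.18 without day 25 replicate 2. Ptger2, a prostaglandin receptor, read 240 and 349 at day 25 and 1298 and 542 at 2 months, and Cd44, the hyaluronan receptor of cumulus cells, 102 and 116 against 200 and 221. Some genes of the surge response were dim at both ages. Ptgs2, the prostaglandin synthase, read 15 and 17 against 16 and 26 and overlapped. Has2, the hyaluronan synthase, read 19 and 18 against 23 and 20, and Pgr, the progesterone receptor, 18 and 20 against 28 and 27. Has2 and Pgr were still among the 13 that were higher. So were Adamts1, at 314 and 273 against 636 and 344, and Ptx3, at 86 and 80 against 180 and 120. Tnfaip6 overlapped, at 148 and 73 against 205 and 137. Of 20 luteinization genes, 11 were higher (55.0% against 19.7% of all genes) and 1 lower (5.0% against 17.0%) without overlap. The median was 0.54 (0.60 and 0.36). Besides the steroid genes the higher ones included Sfrp4, a secreted WNT modulator, at 123 and 143 against 233 and 426, and Parm1 at 1010 and 740 against 1470 and 1422. The luteal enzyme Akr1c18, which breaks down progesterone, and the luteal receptor Ptgfr were dim at both ages (61 to 70 and 19 to 25).

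Of 27 genes of granulosa identity 5 were higher and 3 lower without overlap (18.5% and 11.1%, against 19.7% and 17.0% of all genes). The median was -0.14, with -0.18 on replicate 1 and 0.01 on replicate 2, and 0.03 without day 25 replicate 1. The hormone genes Inha and Amh overlapped between the ages. Inha, the inhibin alpha subunit, read 27499 and 26455 at day 25 and 27455 and 26465 at 2 months, a log2 difference of -0.00 ± 0.09 (adjusted p = 1 in limma). These values lie near 31622, the highest value on any array. Amh, anti-Müllerian hormone of small growing follicles, read 3061 and 2096 against 1819 and 4016, and Fshr, the receptor of follicle-stimulating hormone, 1598 and 1650 against 1126 and 1857. In both genes the 2-month arrays enclosed the day 25 arrays. Fst, the activin-binding protein follistatin, was lower on both arrays, at 10515 and 7416 against 4491 and 5571 (-0.82 ± 0.21), and its other probe set had the same order. Esr2, oestrogen receptor beta, read 515 and 352 against 213 and 291.

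Among the transcription factors of that list, Gata4 read 416 and 471 at day 25 and 886 and 684 at 2 months, and Foxl2 6317 and 7761 against 13167 and 8826, both higher without overlap. Nr5a2, an orphan nuclear receptor, overlapped, at 7418 and 8338 against 8968 and 5538. Among 43 activin, BMP and TGF-beta genes, 10 were higher and 10 lower without overlap (23.3% each, against 19.7% and 17.0% of all genes). All 4 ID genes, targets of BMP signalling whose products block helix-loop-helix factors, were among the 10 higher, a grouping made after their values were seen. Id1 read 738 and 448 in wild-type cells, 241 and 494 in day 25 dKO cells and 1196 and 862 at 2 months, a difference of 1.55 ± 0.44. Id2 read 835 and 1190 against 3957 and 1865, and Id3 1892 and 2356 against 3452 and 3707. Id4 was dim, at 72 and 89 against 117 and 95. Bmp2, a ligand made by granulosa cells, read 1054 and 838 against 3021 and 689, high on replicate 1 and below day 25 on replicate 2. Tgfb2 was lower, at 568 and 758 against 119 and 410, and was far lower on replicate 1.

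Reported FOXO targets were also read as a list. Of 40, 11 were higher and 5 lower without overlap (27.5% and 12.5%, against 19.7% and 17.0% of all genes). The medians were 0.26 on replicate 1 and 0.02 on replicate 2. A link between this list and the Foxo1 signal was not tested. Irs2, an adaptor of the insulin receptor and a classic FOXO target, read 335 and 334 in wild-type cells, 102 and 124 in day 25 dKO cells and 87 and 87 at 2 months. The step from wild type to dKO was thus already there at day 25, with a further log2 difference of -0.37 ± 0.12 between the ages. Igfbp2, which binds insulin-like growth factors, had the same order, with 2046 and 2064, then 1003 and 1255, then 781 and 792 (-0.51 ± 0.14). Klf2 and Klf4, growth-restraining factors, were higher at 2 months, at 362 and 284 against 475 and 564 and at 163 and 218 against 275 and 288. Both are also members of the immediate early list. Of 31 insulin and IGF genes 6 were higher and 7 lower without overlap, near the share of all genes.

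Genes of cell division were lower on replicate 1 than on the other arrays. Of 35 mitosis genes, 33 were over 2-fold lower than the day 25 mean on replicate 1 and 0 on replicate 2, with list medians of -1.61 and -0.05. Without overlap 0 were higher and 13 lower (37.1% against 17.0% of all genes), and 0 had an unadjusted p under 0.05. Mki67, the proliferation marker, read 5880 and 3243 at day 25 and 1968 and 4366 at 2 months, and Birc5, which sits at mitotic centromeres, 3379 and 3523 against 771 and 2786. Of 33 DNA replication genes 1 was higher and 4 lower without overlap (3.03% and 12.1%, against 19.7% and 17.0% of all genes). Their medians were -1.05 on replicate 1 and 0.11 on replicate 2. The shift of both lists thus lay on replicate 1.

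Oocyte genes were lower on both arrays and by far more on replicate 1. Of 20 oocyte markers 19 were lower without overlap (95.0% against 17.0% of all genes) and 0 higher. The medians were -3.23 on replicate 1 and -0.63 on replicate 2. Their summed intensity was 53693 and 32326 in wild-type cells, 74870 and 109994 in day 25 dKO cells and 10897 and 60366 at 2 months. Zp3, a protein of the coat of the egg, read 5120 and 3007, then 7219 and 11105, then 463 and 5404. Gdf9, the growth factor by which the oocyte acts on granulosa cells, read 6771 and 9178 at day 25 and 855 and 5374 at 2 months. In both genes replicate 2 lay below day 25 dKO but above both wild-type arrays, which for Gdf9 read 5016 and 3046. The exception among the 20 was Kit, which overlapped. Whether oocytes that came with the granulosa cells account for any other gene was not tested.

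Marker lists of other cells of the ovary differed from each other, and most stood apart on replicate 1. Endothelial markers were higher without overlap in 13 of 18 (72.2% against 19.7% of all genes) and lower in 0. Their medians were 1.08 and 0.37 on replicates 1 and 2, with summed intensities of 2506 and 3644 at day 25 against 6480 and 4163. Robo4, a guidance receptor of blood vessels, read 70 and 86 at day 25 and 192 and 165 at 2 months (1.19 ± 0.16). Surface epithelium markers were higher without overlap in 9 of 14 (64.3%) and lower in 1 (7.14% against 17.0% of all genes). Their medians were 1.09 and 0.31. Among the higher were Lhx9 at 77 and 89 against 336 and 118 and Epcam at 129 and 188 against 572 and 226. Cdh1 was lower, at 822 and 1051 against 187 and 699, and Krt8, Krt18, Msln and Muc1 overlapped. Macrophage markers were higher without overlap in 4 of 22, or 18.2%, near the 19.7% of all genes, with medians of 1.39 on replicate 1 and -0.05 on replicate 2. Their summed intensity was 18908 and 10491 at day 25 and 31695 and 11476 at 2 months, above wild type (3703 and 7401) on every dKO array. Of 17 lymphocyte markers 6 were higher (35.3%) and 1, Ighm, lower (5.88%) without overlap, with medians of 0.36 and 0.08. Ighm was lower on only 2 of its 11 probe sets. The T cell marker Cd3e lay between 70 and 98 and the B cell marker Cd79a between 28 and 36 over all 6 arrays. Stroma and smooth muscle markers were higher in 0 and lower in 5 of 17 without overlap (29.4% lower, against 17.0% of all genes). On replicate 1, however, 7 of the 17 were over 2-fold higher and 0 lower, and the medians were 0.27 and -0.26. The part of these cells in the other values was not tested.

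**Figure D4:**
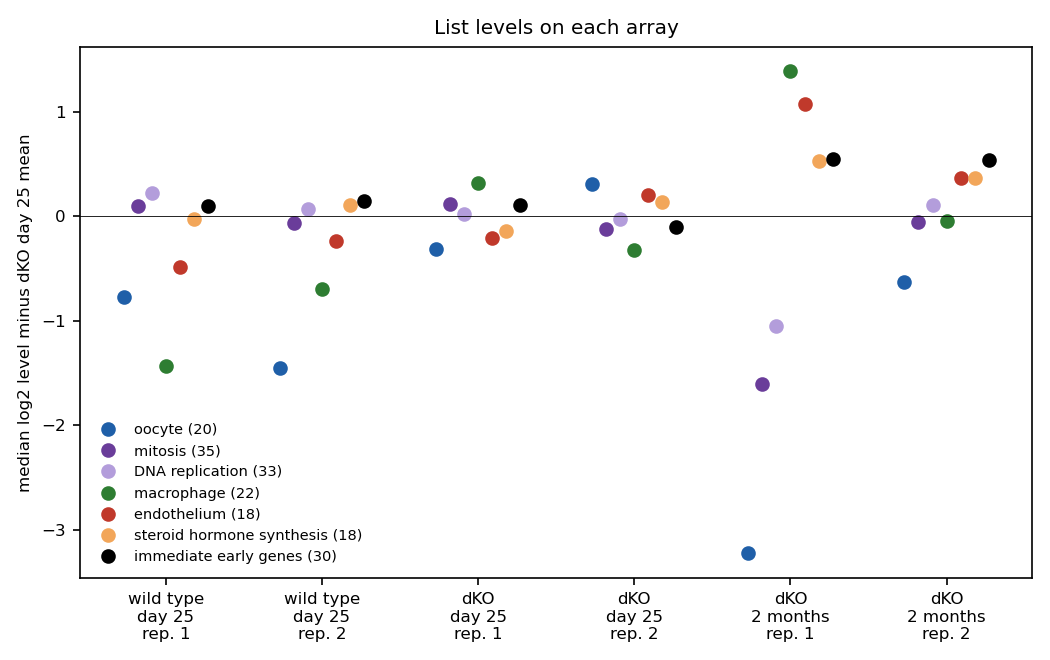
Median log2 level of 7 gene lists on each of the 6 arrays, relative to the day 25 dKO mean of each gene; 1 point stands for 1 list on 1 array and the legend gives the number of genes. Oocyte (-3.23), mitosis (-1.61), DNA replication and macrophage (1.39) points lie far from 0 on replicate 1 at 2 months, while steroid and immediate early points are at 0.53 and 0.55 there and at 0.37 and 0.54 on replicate 2.

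Of 16 genes of antigen presentation 8 were higher and 1 lower without overlap (against 19.7% and 17.0% of all genes), with medians of 0.60 and 0.17 on replicates 1 and 2. Among them were genes of class II, known from macrophages, dendritic cells and B cells. H2-Aa read 367 and 284 at day 25 and 2140 and 760 at 2 months, Cd74, the class II invariant chain, 229 and 238 against 1226 and 469, H2-Eb1 159 and 141 against 595 and 291, and H2-Ab1 302 and 249 against 1515 and 513. In each of these 4 genes replicate 1 was the higher array and replicate 2 still lay above day 25 dKO. The 2 wild-type arrays also lay far apart, at 120 and 442 for H2-Aa and 91 and 314 for Cd74. They read 105 and 205 for H2-Eb1 and 112 and 320 for H2-Ab1. Macrophage markers had a median of -0.05 on replicate 2, and 4 of 22, such as Ptprc and Ctss, were higher without overlap. The part of macrophages in the class II values was not tested. H2-DMa, another class II gene, overlapped, at 94 and 75 against 134 and 92. Tap2, a peptide transporter of the class I route, was higher, at 389 and 374 against 808 and 579. Nlrc5, the activator of class I genes, was lower, at 578 and 375 against 252 and 181 (-1.12 ± 0.34), while the class I genes H2-K1 and H2-D1 overlapped (log2 differences of -0.13 and -0.24). Of 15 complement genes 5 were higher without overlap (33.3%), with medians of 0.69 and 0.01, and of 30 interferon genes 9 (30.0%, both against 19.7% of all genes), with medians of 0.46 and 0.02. For both lists the shift was on replicate 1.

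Of 25 collagens 9 were lower and 1 higher without overlap (36.0% against 17.0% of all genes lower), and the other 15 overlapped, with medians of 0.03 on replicate 1 and -0.33 on replicate 2. Col1a1 read 1094 and 521 in wild-type cells, 852 and 848 in day 25 dKO cells and 529 and 565 at 2 months, a log2 difference of -0.64 ± 0.36 (adjusted p = 0.713 in limma). The member that was higher was Col14a1, a collagen that coats fibrils, at 161 and 127 against 466 and 235. Among 32 angiogenic genes Nrp1, a co-receptor of VEGF, was higher, at 689 and 1137 against 2814 and 1659, and Pdgfb, a ligand for vessel-covering cells, was lower, at 821 and 755 against 353 and 431 (-1.01 ± 0.13). Jag1, a Notch ligand, read 2365 and 2892 against 613 and 1771.

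Single genes of metabolic and signalling lists also lay without overlap. Of 29 genes of cholesterol and lipid handling 8 were higher and 1 lower without overlap (27.6% and 3.45%, against 19.7% and 17.0% of all genes). The higher ones were led after Scarb1 by Abca1, a cholesterol exporter, at 3314 and 2756 against 5577 and 5172 (0.83 ± 0.13). Gsta2, a glutathione transferase that also isomerizes steroids, read 112 and 173 in wild-type cells, 225 and 240 in day 25 dKO cells and 594 and 1100 at 2 months, a difference of 1.79 ± 0.36. Stat5a, which carries the prolactin signal, read 511 and 568 against 868 and 886. Per2, a clock gene, read 114 and 191 against 652 and 248, but its other 2 probe sets overlapped between the ages. The clock genes as a list had 2 of 18 higher and 4 lower (11.1% and 22.2%). Of 25 glycolysis genes 3 were higher and 2 lower (12.0% and 8.0%), below the shares of all genes. Those of apoptosis (7 and 4 of 29, 24.1% and 13.8%) and WNT genes (10 and 5 of 41, 24.4% and 12.2%) were near them.

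**Figure D5:**
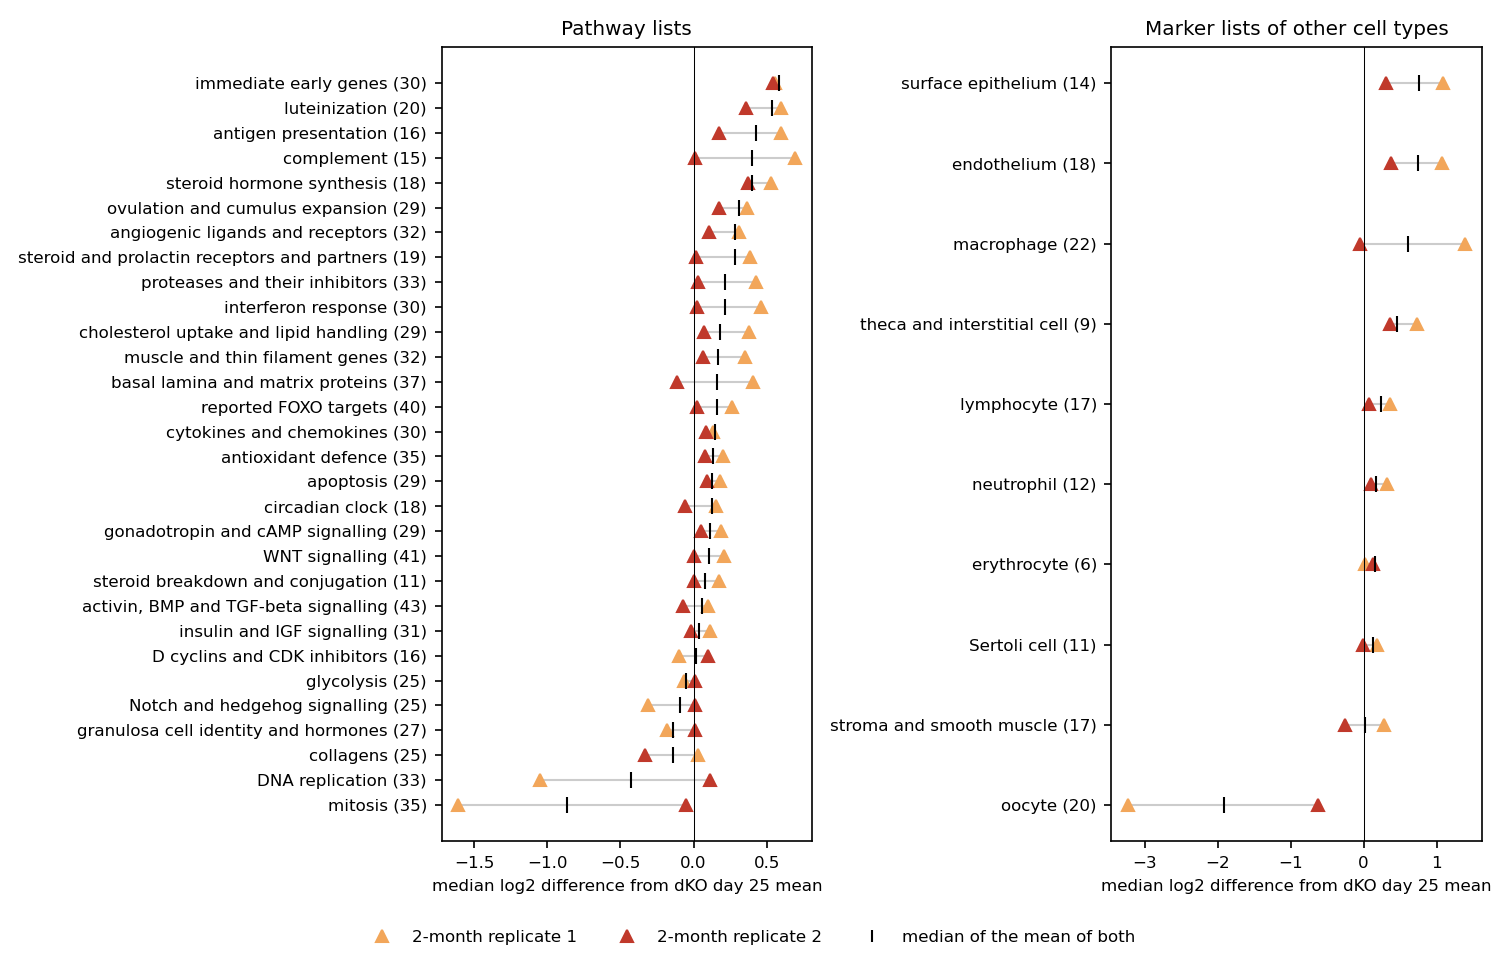
Median log2 difference from the day 25 dKO mean of the 30 pathway lists (left) and the 10 marker lists (right), with a triangle for each 2-month array and a tick for the median of the mean of both; the number of measured genes is in parentheses, and the panels have different x ranges. The triangles of the immediate early list coincide (0.55 and 0.54), and those of mitosis (-1.61 and -0.05) and oocyte (-3.23 and -0.63) are far apart.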

How the data were processed

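Total RNA of granulosa cells was labelled with biotin and read on 1 array per sample. The deposited intensity of each probe set is linear and was made by the authors with RMA in affy, per the submitters' processing notes. Versions, the genome build and the rounding to whole numbers are not given in the sources used here. Since RMA gives arrays 1 distribution, it hides a shift shared by most genes.

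Values were taken as log2(value + 1), which understates dim genes' differences. The arrays hold 45101 probe sets, of which 64 AFFX controls were dropped. Of the 45037 fitted, 34945 had 1 gene symbol in the platform annotation, 932 several and 9160 none, and only the first were named. A gene (18193 in all) was read on its probe set of highest mean across the 6 arrays, and 18032 matched a RefSeq table. Of the genes named, Ang, Arnt2, Ccne1, Cd44, Col14a1, Cyp11a1, Foxo1, Hs3st3b1, Id2, Ighm, Jag1, Klhl32, Lhx9, Nr2f2, Per2, Per3, Pgr, Ptprc, Ptx3, Rpgrip1, Slc38a4, Socs3, Stat5a and Tgfb2 have dimmer probe sets that did not share the order of the brightest. limma 3.58.1 in R 4.3.3 fitted a mean per group to all 6 arrays, leaving 3 residual degrees of freedom. Its p-values are two-sided and adjusted by Benjamini-Hochberg over all probe sets. The fit was tested on simulated data. An exact permutation test of 2 against 2 arrays cannot go below p = 0.333 and was not used.

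Named genes were the 15 per direction of largest gap at a mean intensity of 100 or more in the higher group, up to 5 per list, Foxo1, Foxo3 and genes that define a list. Further members given as examples were chosen after their values were seen. The comparison and the 30 pathway and 10 marker lists were chosen with earlier results of these data known, so no list was tested. Promoters are from RefSeq, GRCm38.p6.

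Alternatives were a pseudocount of 16, centred medians, repeated quantile normalization, dim probe sets left out (fewer than 2 arrays at 64 or more), an intensity trend with a robust prior, only the 4 dKO arrays, array weights, the mean of all probe sets, no cross-hybridizing probe sets, a replicate block, and each array left out.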

Additional observations from a re-analysis of the deposited data

How the results depend on the processing

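No probe set passed an adjusted p of 0.05 under any of the 16 alternatives (smallest adjusted p from 0.122, without dKO 2-month replicate 2, to 0.894, without replicate 1). Where 1 array of a group was left out, the fit took the spread of its partner from the other groups. Over the arrays left out in turn, genes at an unadjusted p under 0.05 numbered 319 to 2322 higher and 256 to 2655 lower, genes without overlap 3583 to 7363 higher and 3087 to 6841 lower, and those also over 2-fold 118 to 656 higher and 84 to 1162 lower. Counts without overlap are bound to grow with fewer arrays. Genes higher at an unadjusted p under 0.05 numbered 381 with dim probe sets left out, which tests fewer genes, and genes lower to 331 with only the 4 dKO arrays, which has fewer samples.

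Of 3149 values of the 197 named genes, 3134 kept their direction. With the mean of all probe sets, Ccne1 was -0.072, Ighm 0.051 and Per3 0.18, and without cross-hybridizing probe sets Ccne1 was -0.37, Socs3 -0.10 and Ang 0. Leaving out an array turned the sign of Amh (-0.48 to 0.66), Bmp2 (-0.45 to 1.68), Fshr (-0.53 to 0.19), Hsd3b1 (-0.10 to 0.69), Inha (-0.029 to 0.027) and Inhba (-0.46 to 0.033), none of which was called.

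The replicate block called 0 probe sets, with a smallest adjusted p of 0.770 and 1905 at an unadjusted p under 0.05. The labels give samples with the same number nothing else in common. The deviations from the group means had a correlation of 0.06 between the 2 dKO ages. It was -0.16 between wild type and day 25 dKO, and -0.21 between wild type and dKO at 2 months. No signal over background is given, so the depth behind dim values is unknown.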
